A study of Mus musculus with 5 samples.

Results

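The clustered histone genes of the mouse were read in RNA from CRC tumours, as the 70 gene symbols of the deposited count table that begin with Hist1h, Hist2h, Hist3h or Hist4h. They were 70 of 54113 named entries, chosen by symbol and not by level. Tumours of the MC38 line, a mouse colon adenocarcinoma line, were grown in C57BL/6 mice. 3 tumours came from mice kept at 30 °C, the thermoneutral control, and 2 from mice kept at 4 °C, each for 2 weeks. No genetic change and no agent is named for either group. The study's methods give a range of ages, for male and female C57BL/6 mice, over its cold exposures in general, and not the age of each sequenced animal.

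Histones package DNA. Pairs of H2A, H2B, H3 and H4 form the core around which DNA is wound, and H1, the linker histone, binds where DNA enters and leaves it. Most of their genes lie in clusters, lack introns and are transcribed in step with DNA replication. The mRNAs of these genes typically end at a short stem-loop, bound by the protein SLBP, and carry no poly(A) tail, although several clustered histone genes can also make longer, polyadenylated mRNAs. A preparation that selects poly(A) tails recovers the first form poorly. The study's methods name the Truseq RNA sample prep Kit for the libraries, and the sources used here do not say whether such a selection was used. The values below are therefore the counts that reached these libraries.

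The members lay in 4 groups on GRCm38, with positions from GENCODE M21. Hist1 held 56 genes on chromosome 13, of which 55 lay between 21715763 and 23934851 and 1, the pseudogene Hist1h2al, lay apart at 51202727 to 51203065. Hist2 held 10 genes on chromosome 3 between 96219865 and 96270132. Hist3 held 3 genes on chromosome 11 between 58948920 and 58956830, and Hist4 was the single gene Hist4h4 on chromosome 6, from 136801553 to 136804415. By class there were 6 genes of H1, 20 of H2A, 19 of H2B, 12 of H3 and 13 of H4.

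The stem-loops are shown first because they define the usual 3′ end of these mRNAs. The letters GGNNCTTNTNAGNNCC were searched on the sense strand of each annotated transcript. They were present in 46 of the 67 members with a protein-coding transcript (68.7%) and in 90 of 21810 other protein-coding genes (0.413%). In all 46 members the match began 21 to 58 bases after the coding end, with a median of 31. Within 100 bases after the coding end, 6 of the 21810 other genes (0.0275%) had a match, among them H2afx, the gene of the histone variant H2A.X, and H2bfm. The 8 kinds found in the members are given below, each with a member that carries it. Capitals mark the 2 arms of 6 bases and lower case the loop of 4 bases.
Hist1h1c, chr13:23739512-23739527, + strand: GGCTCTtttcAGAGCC
Hist1h3c, chr13:23745047-23745062, − strand: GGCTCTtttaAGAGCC
Hist2h2ac, chr3:96220418-96220433, − strand: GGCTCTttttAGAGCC
Hist1h3g, chr13:23535889-23535904, + strand: GGCTCTtcttAGAGCC
Hist4h4, chr6:136803998-136804013, − strand: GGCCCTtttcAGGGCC
Hist1h4i, chr13:22040966-22040981, − strand: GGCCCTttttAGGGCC
Hist1h4a, chr13:23760800-23760815, − strand: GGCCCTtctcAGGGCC
Hist1h4b, chr13:23757366-23757381, + strand: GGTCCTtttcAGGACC

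The kind shown for Hist1h1c was the most frequent, with 26 members, and it occurred in H1 (3), H2A (10), H2B (8) and H3 (5). The kind of Hist1h3c was held by 6 members, which were 1 of H1, 2 of H2B and 3 of H3. Each of the 12 H4 members with a match had other arms than the 34 members of the remaining classes. Of these 12, 7 had the kind of Hist4h4, 2 that of Hist1h4i, 2 that of Hist1h4b and 1 that of Hist1h4a. The kinds of Hist2h2ac and Hist1h3g were found in 1 member each. No match lay in the annotated transcripts of Hist1h2bc, Hist2h2be, Hist1h1a or Hist1h1b. Only annotated transcripts were searched, and some were short, such as the 381 bases of Hist1h2bn and the 312 of Hist1h4k. A missing match therefore does not show that a gene lacks a stem-loop.

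Promoters are shown for members of 3 classes because 1 of the elements searched was found only in H2A and H2B promoters, although not in most of them. The windows, from RefSeq on GRCm38.p6, reach from 250 bases before to 50 bases after each gene start and could be matched for 62 members. Capitals mark matches, on either strand, to the octamer ATTTGCAT, to TATAAA and to CCAAT. No matches of different motifs overlapped.
Hist1h2ac, chr13:23683910-23684209, − strand: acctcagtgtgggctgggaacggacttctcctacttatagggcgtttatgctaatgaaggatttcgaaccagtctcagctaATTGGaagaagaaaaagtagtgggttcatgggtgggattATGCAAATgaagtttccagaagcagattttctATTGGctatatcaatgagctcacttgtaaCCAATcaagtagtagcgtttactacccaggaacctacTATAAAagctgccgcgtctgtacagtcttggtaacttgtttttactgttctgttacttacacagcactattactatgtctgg
Hist1h1c, chr13:23738557-23738856, + strand: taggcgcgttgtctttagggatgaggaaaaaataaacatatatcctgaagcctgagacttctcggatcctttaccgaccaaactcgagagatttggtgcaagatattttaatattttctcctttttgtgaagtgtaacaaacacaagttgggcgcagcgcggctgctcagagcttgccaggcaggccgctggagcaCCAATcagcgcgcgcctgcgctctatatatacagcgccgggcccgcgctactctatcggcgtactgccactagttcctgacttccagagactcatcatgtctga
Hist1h4i, chr13:22041313-22041612, − strand: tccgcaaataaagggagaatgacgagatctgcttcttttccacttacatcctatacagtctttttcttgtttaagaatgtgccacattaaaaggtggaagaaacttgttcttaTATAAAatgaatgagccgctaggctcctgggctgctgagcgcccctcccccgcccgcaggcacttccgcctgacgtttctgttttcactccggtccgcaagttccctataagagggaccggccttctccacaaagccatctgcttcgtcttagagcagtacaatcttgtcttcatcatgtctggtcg

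The octamer was present in 13 of the 62 members (21.0%) and in 461 of 26963 promoters of other genes (1.71%). It was found in 7 of 18 H2A and 6 of 16 H2B promoters and in none of the 6 of H1, 10 of H3 and 12 of H4. TATAAA was present in 35 members (56.5%, against 14.1% of the other promoters). CCAAT was present in 53 members (85.5%, against 37.8%), namely in every H1, H2A, H2B and H3 promoter and in 3 of the 12 of H4. The window of Hist1h2ac also spans the 250 bases that separate this gene from its neighbour Hist1h2bc, which is read in the opposite direction.

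Depth ran from 16191708 to 20320525 counts per library, and 3 counts, taken as the floor, equal 0.148 to 0.185 CPM (counts scaled to a library of 1000000). Summed over marker lists, the 10 epithelial genes reached only 20 to 122 CPM in tumours labelled CRC, with 1 of them at 0 in every library. The 14 B cell genes reached 9886 to 20883 CPM, the 10 erythroblast genes 15951 to 42266 and the 6 genes of splenic mesenchyme 96.9 to 209. By library, the B cell genes stood at 14312, 9886 and 17757 CPM at 30 °C and at 20883 and 20219 at 4 °C. In the edgeR fit given below, all 14 B cell genes were higher in value at 4 °C. So were 5 of the 6 splenic and 5 of the 10 erythroblast genes, while 49.3% of all genes tested were lower. The 24 acinar genes of the pancreas stood at 269520 CPM in 30 °C replicate 2, at 2627 in 4 °C replicate 2 and at 24.2 to 85 in the other 3 libraries. Summed CPM are therefore also given below over the counts outside the acinar list. The part of the B cell, erythroblast and splenic transcripts in the results was not tested.

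Clustered histone genes gave few counts, and a handful of genes supplied most of them. Between 3029 and 4132 counts per library fell on the members. Of the 70 members, 63 had a count in at least 1 library, 43 passed the filter on low counts and 20 were counted but too low to test, with 1 to 46 counts in total. The 10 members with the highest mean CPM held 78.9% of all member counts, and Hist1h1c alone held 34.4%. In bulk tumour RNA, fewer cells of a type and less RNA per cell cannot be told apart.

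The 7 members at 0 in every library were Hist2h2aa1, Hist2h2aa2, Hist2h3c1, Hist2h3b, Hist2h2bb, Hist1h2aa and Hist1h2ba. In the first 5, each exon base was also covered by another annotated gene and each stretch of 100 bases recurred in another gene. The treatment of such reads is not given in the sources used here, so these 5 zeros do not show that the genes were silent. Hist1h2aa and Hist1h2ba, the H2A and H2B genes best known from testis, are head-to-head neighbours, and a count of 0 allows up to 0.185 CPM in the shallowest library. Hist1h1t, the linker histone of the testis, had 2 counts, both in 30 °C replicate 2. Among the 43 tested members, a median of 30.7% of 100-base stretches recurred in another gene (range 0% to 92%), and among the 10 highest the median was 10.1%.

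**Figure D1:**
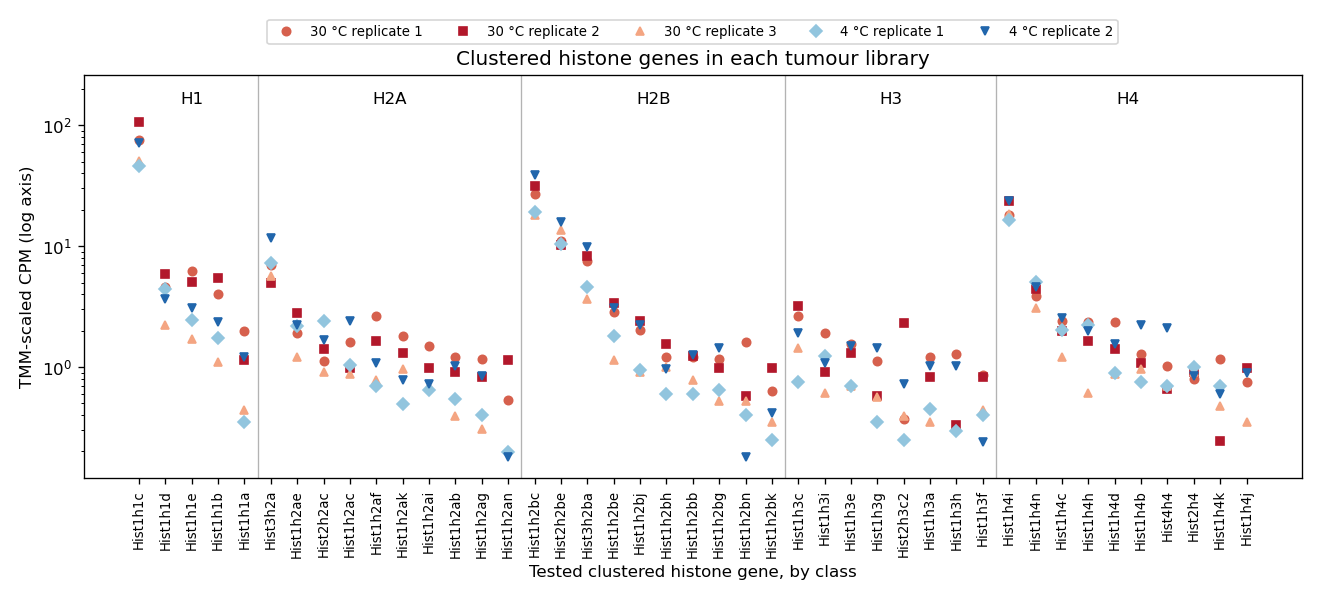
Level of each of the 43 tested clustered histone genes in the 5 tumour libraries, in TMM-scaled CPM on a log axis, with genes on the other axis grouped by class and ordered by mean level. Each point is 1 library. Hist1h1c, Hist1h2bc and Hist1h4i lead the H1, H2B and H4 classes, and 30 °C replicate 3 is the highest library for 0 of the 43 genes.

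The linker histones were led by Hist1h1c, a somatic H1 gene on chromosome 13 from 23738808 to 23740367. It had 81.6, 78.2 and 56.8 CPM at 30 °C and 50.2 and 74.1 CPM at 4 °C, so the groups overlapped. Per kilobase of exon its mean level was 43.7 CPM, the highest of the members. Hist1h1d, also a somatic H1 gene, had 4.98, 4.35 and 2.51 CPM at 30 °C and 4.78 and 3.77 at 4 °C. Its level per kilobase was 0.549 CPM, computed over 7425 annotated exon bases. Hist1h1e had 6.75, 3.75 and 1.92 CPM at 30 °C and 2.63 and 3.15 at 4 °C. Hist1h1b had 4.35, 3.99 and 1.23 at 30 °C and 1.88 and 2.41 at 4 °C. In both genes the lowest value of all 5 libraries was that of 30 °C replicate 3. Hist1h1e shared 496 exon bases on its own strand with other genes, among them Hist1h2be, and reads there may be split or lost.

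Among the H2B genes, which encode 1 of the core histones, Hist1h2bc stood first, with 29.1, 23.3 and 20.3 CPM at 30 °C and 20.7 and 39.7 CPM at 4 °C. The extremes were thus 30 °C replicate 3 and 4 °C replicate 2. Hist2h2be, the highest member of Hist2, had 12, 7.5 and 15.3 CPM at 30 °C and 11.3 and 16.2 at 4 °C. Hist3h2ba, the H2B gene of Hist3, had 8.12, 6.05 and 4.13 CPM at 30 °C and 5 and 10.1 at 4 °C. Per kilobase the means were 23, 4.75 and 10.9 CPM in this order, so Hist3h2ba ranked above Hist2h2be on the scale that corrects for length.

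H4 was led by Hist1h4i, with 19.6, 17.5 and 20.9 CPM at 30 °C and 17.9 and 24.2 at 4 °C, or 27.6 CPM per kilobase over the 5 libraries. Hist1h4n, a further H4 gene, had 4.12, 3.27 and 3.44 CPM at 30 °C and 5.43 and 4.76 at 4 °C. Of the 100-base stretches of Hist1h4n, 80.7% recurred in another gene, so its counts are uncertain. The highest H2A gene was Hist3h2a, with 7.49, 3.63 and 6.35 CPM at 30 °C and 7.84 and 12.1 at 4 °C. It shared 708 exon bases on the same strand with Trim17 and Gm44313, which also makes its counts uncertain. H3 had no member among the 10 highest, and its leading gene Hist1h3c had 2.86, 2.36 and 1.62 CPM at 30 °C and 0.806 and 1.98 at 4 °C.

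Summed by class, H1 held 40.2% of member counts, H2B 28.2%, H4 17.8%, H2A 9.68% and H3 4.15%. H1 thus exceeded each core class in these counts, but Hist1h1c alone held 34.4% of member counts. The shares are not corrected for exon length. By group, Hist1 held 84.2%, Hist2 8.04%, Hist3 7.27% and Hist4 0.527%. With 3 members, Hist3 thus held nearly the share of the 10 members of Hist2, of which 5 were at 0.

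The members were also sorted by where their annotated transcripts end. In 23 members an annotated transcript ran on for more than 100 bases after the stem-loop. In 23 each transcript with a stem-loop ended within 100 bases of it, and in 24 no stem-loop was found. The first set held 64.1% of member counts, the second 9.95% and the third 25.9%. Within the first set, Hist1h1c held 34.4% of member counts, Hist1h4i 10.2%, Hist3h2a 3.79% and Hist3h2ba 3.33%. The median level of each set was 1.14, 0.519 and 0.377 CPM per gene in the same order, and 0.695, 1.05 and 1.02 CPM per kilobase of exon. The extended set was thus the highest per gene and the lowest per kilobase. Annotated length was used here, since these counts per gene do not show where reads fell.

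**Figure D2:**
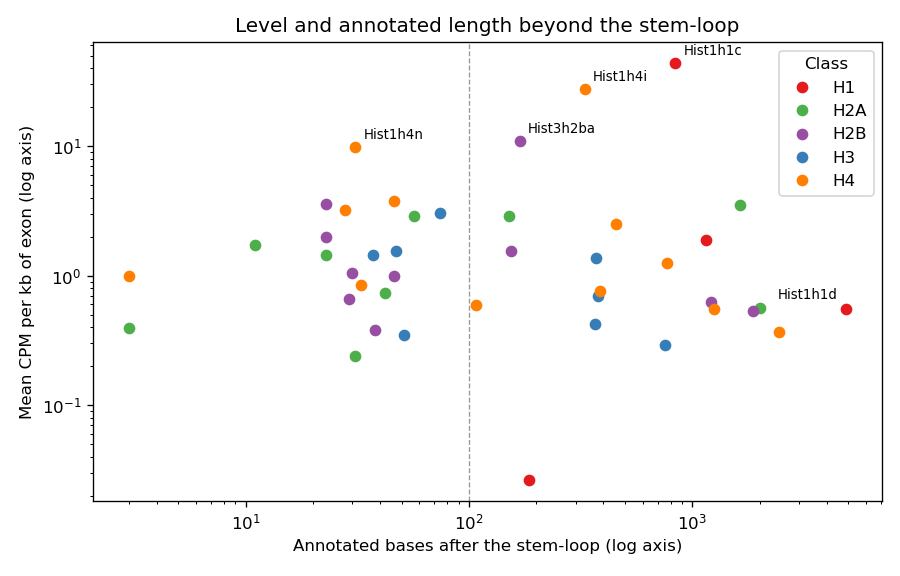
Mean level over the 5 libraries, in CPM per kilobase of exon, against the annotated bases after the stem-loop, both on log axes. Each point is 1 of the 43 members with a stem-loop and a count, coloured by class, and the dashed line marks 100 bases. Hist1h1c (43.7) and Hist1h4i (27.6) lie to the right of the line and Hist1h4n (9.77) to the left.

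Genes of H2A and H2B often stand head to head and share the DNA between their starts. 14 such pairs, with 28 genes, had starts within 500 bases of each other, and in 11 of the pairs both genes had counts in every library. In Hist1h2ac and Hist1h2bc, whose shared window is printed above, the H2B gene had 23 ± 7.03 CPM per kilobase (SD, n = 5) and the H2A gene 0.566 ± 0.281. Per kilobase, Hist1h2bc was higher in each of the 5 libraries, by 40.7-fold in the means and by 34.5-fold to 68.9-fold in single libraries. These ratios depend on annotated length, which was 1156 exon bases for Hist1h2bc and 2482 for Hist1h2ac. Without the correction for length the means were 26.6 and 1.4 CPM. Hist1h2bj was likewise above Hist1h2ag in each library, by 2.47-fold in the means. The opposite order, with H2A higher in all 5 libraries, was seen in 4 pairs, with the H2A genes Hist3h2a, Hist1h2ai, Hist1h2ak and Hist1h2ae. The partner of Hist3h2a, Hist3h2bb-ps, is annotated as a processed pseudogene. Of the 100-base stretches of Hist1h2ai, 88.4% recurred in another gene. Reads shared between genes make the order within such pairs uncertain. The remaining 5 pairs changed order between libraries.

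**Figure D3:**
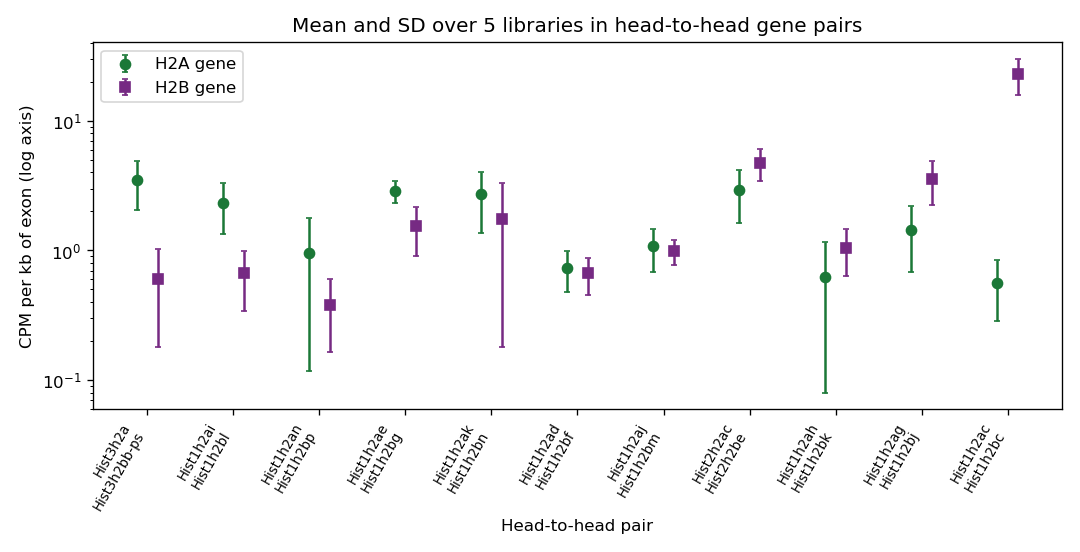
Mean level with SD over the 5 libraries, in CPM per kilobase of exon on a log axis, for the H2A gene (circles) and the H2B gene (squares) of 11 head-to-head pairs, ordered by their ratio. Hist1h2bc stands at 23 against 0.566 for Hist1h2ac, and Hist3h2a at 3.49 against 0.606 for Hist3h2bb-ps.

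The comparison of 4 °C with 30 °C asks how bulk RNA of the samples labelled CRC differed after cold exposure. It does not assign the values to carcinoma cells, given the low epithelial and high B cell and erythroblast sums above. No clustered histone gene passed the test. In the edgeR quasi-likelihood fit, with p-values adjusted over 16133 genes by the Benjamini-Hochberg method, 0 of the 43 tested members had an adjusted p under 0.05, against 0% of all genes tested, and the smallest adjusted p of a member was 0.75. At an unadjusted p under 0.05 there were also 0 members, against 6.76% of all genes (1090 genes), of which 2.58% were higher and 4.17% lower at 4 °C. The log2 fold changes of members ran from −1.60 to 0.84 with a median of −0.10, beside a median of 0.006 over all genes. The median standard error was 0.58. Of the 43, 25 were lower and 18 higher in value at 4 °C, a share of 58.1% lower against 49.3% of all genes. The median moved, and changed sign, with single tumours left out, to 0.20 without 4 °C replicate 1 and 0.14 without 30 °C replicate 1, and to −0.62 without 4 °C replicate 2 and −0.38 without 30 °C replicate 3. Without 30 °C replicate 2, the library with the acinar counts, it was 0.01. The p-values measure the spread between these 5 tumours.

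**Figure D4:**
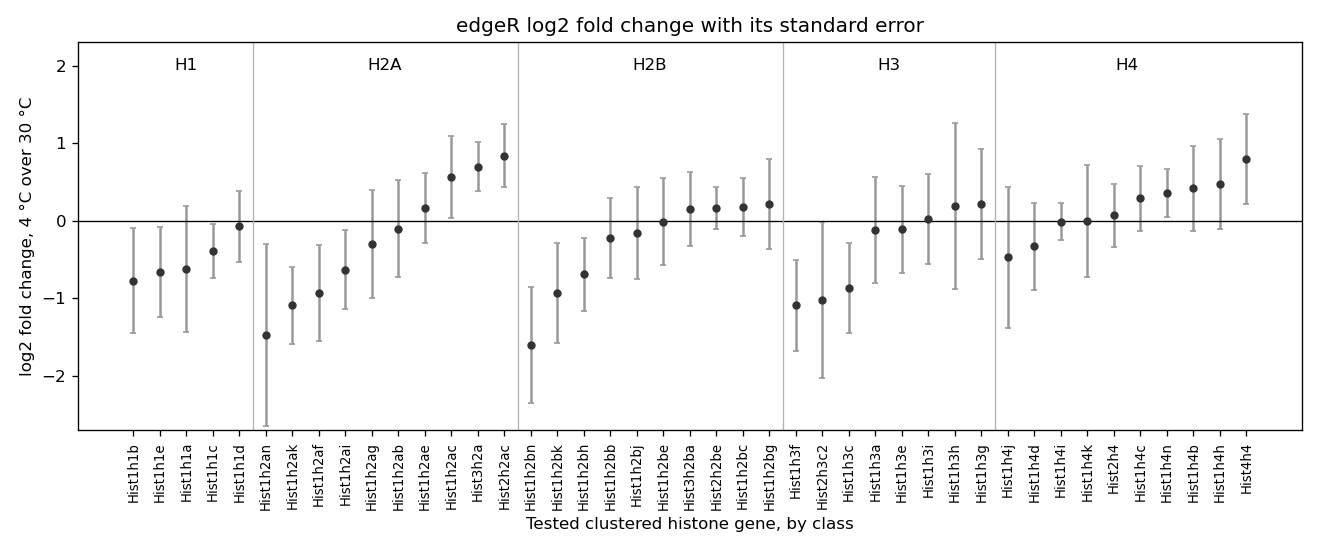
The log2 fold change at 4 °C over 30 °C for each of the 43 tested clustered histone genes, with its standard error from edgeR, grouped by class. Points lie between −1.60 (Hist1h2bn) and 0.84 (Hist2h2ac), and none had an adjusted p under 0.05.

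Groups that did not overlap, in CPM scaled by the TMM method (trimmed mean of M values), were found in 7 of the 43 members (16.3%), against 23.3% of all genes. Both tumours at 4 °C stood above all 3 at 30 °C in 3 members, Hist2h2ac, Hist3h2a and Hist1h4n (background 12.2%). They stood below in 4 members, Hist1h2ak, Hist1h2bn, Hist1h2bh and Hist1h3f (background 11%). Neither share exceeded its background. For Hist3h2a the TMM-scaled CPM were 6.97, 4.93 and 5.63 at 30 °C and 7.26 and 11.7 at 4 °C. The log2 fold change of Hist3h2a was 0.70, with a standard error of 0.32. Its unadjusted p of 0.067 from edgeR was the smallest of the members.

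Hist2h2ac, an H2A gene of Hist2, had 1.12, 1.4 and 0.917 TMM-scaled CPM at 30 °C and 2.39 and 1.68 at 4 °C, with a log2 fold change of 0.84 (standard error 0.41, edgeR adjusted p = 0.76). These values rest on 17 to 48 counts per library. Its head-to-head neighbour Hist2h2be had a log2 fold change of 0.17 (standard error 0.27). For Hist1h4n the change was 0.36 (standard error 0.31).

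In the other direction, Hist1h2bn, an H2B gene, had 1.6, 0.575 and 0.524 TMM-scaled CPM at 30 °C and 0.398 and 0.18 at 4 °C. The change was −1.60 in log2 units, with a standard error of 0.75 (edgeR adjusted p = 0.76), on only 3 to 30 counts per library. Hist1h2ak, the H2A gene of the same head-to-head pair, had 1.81, 1.31 and 0.961 at 30 °C and 0.497 and 0.779 at 4 °C, with a log2 fold change of −1.09 (standard error 0.50). Both members of this pair were thus lower in value at 4 °C, at levels of a few reads. Hist1h3f, an H3 gene, changed by −1.09 (standard error 0.59) and Hist1h2bh by −0.69 (standard error 0.47).

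The rest of the 10 members with the smallest p had overlapping groups. Their log2 fold changes were −0.93 for Hist1h2af (standard error 0.62), −0.87 for Hist1h3c (0.58), −0.93 for Hist1h2bk (0.65) and 0.80 for Hist4h4 (0.58). Among the highest members, the log2 fold change was −0.39 for Hist1h1c (standard error 0.35), 0.18 for Hist1h2bc (0.37) and −0.01 for Hist1h4i (0.24). For the other highest members it was 0.15 for Hist3h2ba (0.48), −0.07 for Hist1h1d (0.46), −0.66 for Hist1h1e (0.58) and −0.77 for Hist1h1b (0.68). The changes of these highest members were below or close to their standard errors.

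The summed CPM of the 70 members were 236, 188 and 162 at 30 °C and 163 and 241 at 4 °C, with means of 196 ± 37.6 (SD, n = 3) and 202 ± 55.2 (SD, n = 2). The difference, 0.04 on the log2 scale, was smaller than the spread in either group. On the TMM scale the sums were 220, 255 and 144 at 30 °C and 151 and 234 at 4 °C, and the difference became −0.10, so its sign depended on the scaling. Over the counts outside the acinar list, the sum in 30 °C replicate 2 was 257 in place of 188 CPM and the difference −0.11. For the classes, the log2 ratio of mean summed CPM was −0.23 for H1, 0.33 for H2A, 0.24 for H2B, −0.17 for H3 and 0.23 for H4, and after TMM scaling −0.40, 0.21, 0.11, −0.31 and 0.10. Over the counts outside the acinar list these were −0.41, 0.19, 0.10, −0.32 and 0.08.

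Single tumours moved the class sums. When 1 tumour at a time was dropped, the log2 ratio of summed CPM ran from −0.50 (without 4 °C replicate 2) to −0.00 (without 4 °C replicate 1) for H1. For H2A it ran from 0.10 (without 4 °C replicate 2) to 0.63 (without 30 °C replicate 1), and for H4 from 0.04 (without 4 °C replicate 2) to 0.40 (without 4 °C replicate 1). For H2B it ran from −0.20 (without 4 °C replicate 2) to 0.58 (without 4 °C replicate 1). That of H3 was −0.68 without 4 °C replicate 2, 0.20 without 4 °C replicate 1 and 0.18 without 30 °C replicate 1. The sign of the H2B and H3 sums thus rested on single tumours in unscaled CPM. On the TMM scale this also held for H2A and H4. There, 4 °C replicate 1 alone stood at 17.2 against a 30 °C mean of 18 for H2A, and at 31.1 against 34 for H4. The sums and the genes also differed in sign, since 6 of the 10 tested H2A members and 6 of the 10 tested H2B members were lower in value at 4 °C, with median log2 fold changes of −0.20 and −0.08. Mean summed CPM of H2A were 17.4 at 30 °C and 21.8 at 4 °C, of which Hist3h2a made up 5.82 and 9.97. All 5 tested H1 members were lower in value at 4 °C under each scaling, but 3 of the 5 without 30 °C replicate 1. Of the 10 tested H4 members 7 were higher, 6 with RLE scaling and 8 with upper-quartile scaling. In no tested H1 member did the groups separate.

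Larger than the difference between temperatures was the spread inside each group, and the members shared its order. On the TMM scale, 39 of the 43 members (90.7%) were higher in 30 °C replicate 1 than in 30 °C replicate 3, against 49.4% of all genes tested. Likewise 38 members (88.4%, against 46.4%) were higher in 30 °C replicate 2 than in 30 °C replicate 3. At 4 °C, 33 members (76.7%, against 50.9%) were higher in replicate 2 than in replicate 1. The library of 30 °C replicate 3 was the highest of the 5 for 0 members and the lowest for 21 (48.8%), against 18.1% and 15.8% of all genes. Members that share a sequence share reads, so they are not independent counts of this pattern. The order was not particular to the members, as lists described below show. In these comparisons it held for 9, 8 and 9 of 11 variant histones. For the S-phase list it held for 21, 30 and 21 of 31 genes. It held for 2, 2 and 2 of 8 genes of histone transcription and 6, 5 and 5 of 14 for mRNA ends and decay. Of 19 histone chaperones it held for 8, 11 and 10, and of the 10 erythroblast genes for 9, 10 and 5. The 10 erythroblast genes, summed, were also lowest in 30 °C replicate 3, with 14152 TMM-scaled CPM against 27256 and 42346 in the other 30 °C tumours and 33246 and 40998 at 4 °C. The part of erythroblast content in the histone values was not tested.

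Genes around the clustered histones were read from lists written with results of these data known, so their directions are not independent evidence, and 0 genes of any list had an edgeR adjusted p under 0.05. All 31 genes of the S-phase list, which holds replication and proliferation genes, were lower in value at 4 °C, with a median log2 fold change of −0.57, beside 49.3% lower and a median of 0.006 over all genes tested. An unadjusted p under 0.05 was found in 22 of them, against 6.76% of all genes, and groups that did not overlap in 24, against 23.3%. Summed, the list stood at 5008, 5856 and 4761 TMM-scaled CPM at 30 °C and at 3126 and 3469 at 4 °C, so both cold tumours were below all 3 others. Without 30 °C replicate 2 the list had 31 of 31 genes lower and 12 at an unadjusted p under 0.05, and without 4 °C replicate 1 it had 30 lower and 10 at that threshold. Its 3 genes with the smallest p were Cdc6, which loads the replicative helicase (log2 fold change −1.04, standard error 0.19), Rrm1, a subunit of ribonucleotide reductase (−0.77, 0.18), and Mki67, the proliferation marker Ki-67 (−1.10, 0.27). For the clustered histone genes the corresponding sums overlapped between the groups. Whether the 2 lists differ was not tested.

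**Figure D5:**
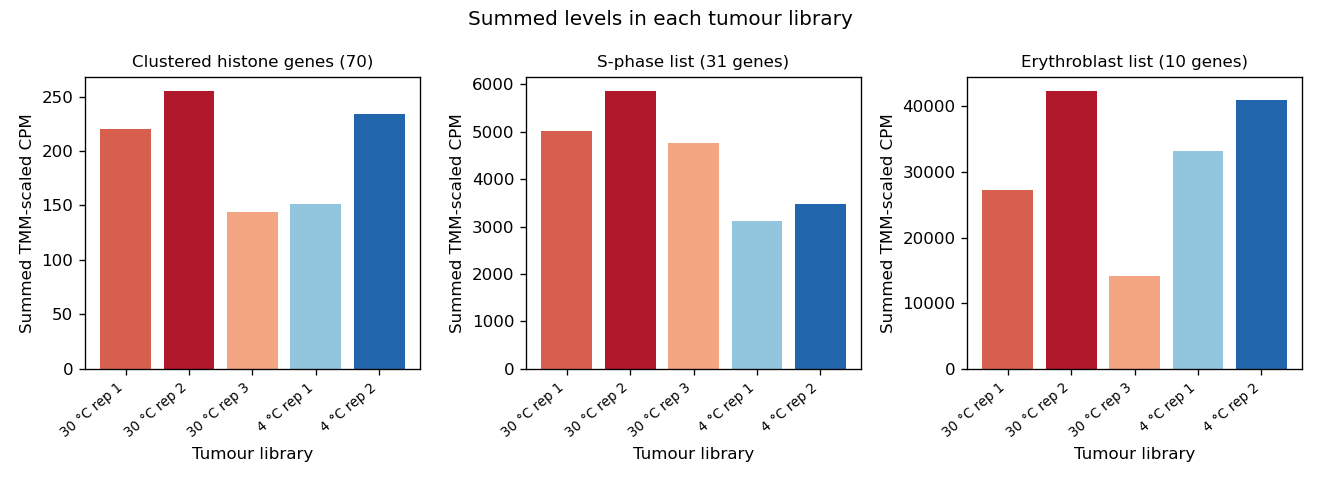
Summed TMM-scaled CPM in each tumour library for the 70 clustered histone genes, the 31 genes of the S-phase list and the 10 genes of the erythroblast list, with 1 bar per library and each axis starting at 0. The histone sum is lowest in 30 °C replicate 3 (144) and 4 °C replicate 1 (151), the S-phase sum in the 4 °C tumours (3126 and 3469), and the erythroblast sum in 30 °C replicate 3 (14152).

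The variant histones, which are encoded outside the clusters and used throughout the cell cycle or at special sites, had a median log2 fold change of −0.02 over 11 genes, 6 lower and 5 higher. Those with the smallest p were H2afj (0.47, standard error 0.24), H1fx (1.10, 0.57) and Cenpa, the histone of the centromere (−0.40, 0.28). Transcription factors and co-factors of histone genes had a median of −0.03 over 8 genes, with 5 lower. Among them Npat, the co-activator of the clusters, had 26.1, 30.5 and 32.1 TMM-scaled CPM at 30 °C and 27.2 and 16.5 at 4 °C. Casp8ap2 changed by −0.40 (standard error 0.34) and Hinfp, which acts at H4 promoters, by −0.25 (0.25).

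Of the 15 genes for 3′ end formation and decay of histone mRNA, 14 were matched in the table, with 9 lower and a median of −0.06. Slbp, whose protein binds the stem-loop printed above, had 166, 170 and 151 TMM-scaled CPM at 30 °C and 111 and 136 at 4 °C. The groups of Slbp did not overlap, with a log2 fold change of −0.39 (standard error 0.17, edgeR adjusted p = 0.75). Groups that did not overlap were found in 3 of the 14 genes, against 23.3% of all genes tested. Eri1, an exonuclease that trims histone mRNA, changed by −0.36 (standard error 0.20), and Lsm1 by 0.29 (0.19). Of the 19 histone chaperones, 14 were lower, with a median of −0.21. Chaf1a, a subunit of the factor that deposits new H3 and H4 behind the replication fork, had 61.7, 76.5 and 61.7 TMM-scaled CPM at 30 °C and 39.1 and 37.3 at 4 °C. Chaf1a changed by −0.80 in log2 units, with a standard error of 0.18 and an edgeR adjusted p of 0.69. Hjurp, the chaperone of Cenpa, changed by −0.59 (standard error 0.16) and Supt16, a subunit of FACT, by −0.53 (0.27).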

How the data were processed

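For RNA-seq of 3 tumours at 30 °C and 2 at 4 °C, the deposited values are raw counts per gene. The study's methods name featureCounts on Gencode vM19 for counting. The submitters' processing notes name fastp, HISAT, RSEM and GRCm38 without a role. Which tool made the deposited counts is therefore not known. Read length, strand setting and the treatment of reads shared between genes are not given in the sources used here, which affects near-identical histone genes. Entries without a name (333 of 54446, 0.0101% to 0.017% of counts) were left out. Counts were tested in R 4.3.3 with edgeR 4.0.16 (filterByExpr, TMM, robust quasi-likelihood test, no covariate), on the whole table, and methods were tested on simulated data. CPM used all named counts. Positions, exon lengths and stem-loops came from GENCODE M21, which differs in version from the authors' annotation, and recurring stretches were counted as 100-base words shared between transcripts of different genes. Members and lists were chosen with earlier results of these data known. Named members were the 10 with the highest mean CPM, the 10 with the smallest p and the highest of each class and cluster; of each related list, the 3 with the smallest p were named. The alternatives included DESeq2 1.42.0, other scalings and filters, the replicate block and each tumour left out. Intervals of counts were not computed, and floors cover counting error only, as PCR reads are not independent molecules.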

Additional observations from a re-analysis of the deposited data

How the results depend on the processing

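The count of clustered histone genes with an adjusted p under 0.05 was 0 in edgeR and under each alternative run, DESeq2, 2 other scalings, 2 other filters, no robust estimation, the replicate block and each tumour left out. At an unadjusted p under 0.05 it was 0, and became 1 with at least 10 counts in every library (Hist1h2ak), 2 without 30 °C replicate 3 (Hist1h1b and Hist1h1e) and 1 without 4 °C replicate 1 (Hist3h2a). Over all genes the count was 0, and became 118 with DESeq2 (Wald test), 44 under the replicate block and 1090 at an unadjusted p under 0.05. In the related lists DESeq2 called 5 genes (Rrm1, Mki67, Cdc6, Top2a and Chaf1a) against 0 in edgeR. Members with both 4 °C tumours above all 30 °C tumours numbered 3, and 5 without a filter. The cause was not tested. Of 129 fold changes of the 19 named members under the alternatives other than leaving a tumour out, 126 kept their direction, and upper-quartile scaling turned Hist1h4i to 0.05. These alternatives include the replicate block, which drops 30 °C replicate 3 from the contrast. With each tumour left out in turn, 13 named members kept their direction throughout. The others ranged from −0.43 to 0.60 (Hist1h2bc), −0.30 to 0.22 (Hist1h4i), −0.17 to 0.44 (Hist2h2be), −0.50 to 0.60 (Hist3h2ba), −0.38 to 0.23 (Hist1h1d) and −0.20 to 1.40 (Hist4h4). Leaving out a 4 °C tumour leaves 1, which is assumed to vary like the others.

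No source says what a shared replicate number stands for, so the numbers were not taken to pair the tumours. The data cannot decide it: the deviations of replicates 1 correlated at −0.255 and those of replicates 2 at 0.259, but with 2 tumours at 4 °C these deviations are exact opposites, which ties the signs. With the replicate number as a block, which drops 30 °C replicate 3 from the contrast, 0 members passed, 32 of 43 were lower, and Hist1h2bc and Hist3h2ba turned to −0.11 and −0.23. Depth limits the low members most, as 20 of the 63 counted members were too low to test.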

Other observations

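As a ratio chosen after the values were seen, the counts on the 70 clustered histone genes were set against the counts on the 31 genes of the S-phase list in the same library. They equalled 4.39%, 4.36% and 3.02% of the S-phase counts at 30 °C, with a mean of 3.93% ± 0.781 (SD, n = 3), and 4.82% and 6.73% at 4 °C, with a mean of 5.78% ± 1.35 (SD, n = 2). Both tumours at 4 °C stood above all 3 at 30 °C. On the TMM scale the S-phase sums by themselves already separated the groups, and the histone sums overlapped. The S-phase list was written with results of these data known, so this separation is not independent evidence. The ratio does not depend on the scaling of the libraries. The ratio was not tested. Erythroblast transcripts, summed, stood at 29292, 31181 and 15951 CPM at 30 °C and at 35915 and 42266 at 4 °C. On the TMM scale these sums overlapped between the groups, at 27256, 42346 and 14152 at 30 °C and at 33246 and 40998 at 4 °C.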
